A study of Mus musculus with 6 samples.

Results

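The 35 genes described here encode the enzymes of cholesterol synthesis, the SREBP system that controls them, the LXR system that drives sterol export, and the enzymes of fatty acid synthesis. They were chosen by gene symbol as members of these pathways, with earlier results of these data known, and all 35 were present among the 24223 genes of the RNA-Seq count files. All 35 also passed the filter on low counts and were tested with 13607 genes in all. They comprise 6 enzymes from acetyl units to farnesyl pyrophosphate, 11 enzymes from squalene to cholesterol, 5 genes of SREBP control, 5 genes of LXR signaling and of sterol export and transport, and 8 genes of fatty acid synthesis.

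Bulk RNA-Seq was performed on 3 kinds of mouse CD4+ T cell, with 2 libraries each. Naive CD4+ T cells (Naive) were isolated with a magnetic kit from pooled spleens and lymph nodes of C57BL/6 mice aged 1 to 2 months. T helper 1 (Th1) and T helper 17 (Th17) cells were grown from them in vitro. Both were activated through CD3 and CD28 and received anti-IL-4; Th1 cultures also received IL-12 and IL-2, whereas Th17 cultures received anti-IFN-γ, TGF-β, IL-6, IL-1β and IL-23. Th cells were collected after 5 days of culture, so activation, culture and cytokines all separate them from Naive, and IL-2 was added in the Th1 condition alone. These are in vitro polarized cultures of pooled organs, and the labels give only replicate numbers, so the p-values below measure the spread between these libraries.

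Cells make cholesterol from acetyl-CoA through mevalonate, farnesyl pyrophosphate and squalene. When sterols in the endoplasmic reticulum fall, SCAP escorts the SREBP precursors to the Golgi, where they are cleaved into transcription factors that raise sterol and fatty acid synthesis genes; INSIG proteins hold SCAP back when sterols are plentiful. Sterol excess activates the LXR receptors, which raise the exporters ABCA1 and ABCG1. Activated T cells are known to raise lipid synthesis as they grow and divide.

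Total counts per library were between 17742158 and 69080017, and replicate 1 was 3.38 to 3.765 times as deep as replicate 2 in every cell type. The 5 T cell markers summed to between 2250 and 3350 CPM (counts per 1000000, scaled by TMM factors) in every library. The sums of lineage markers followed the labels. The summed CPM of 5 Th17 markers was 1412 and 1877 in Th17 and at most 10.55 elsewhere. That of 4 Th1 markers was 775.1 and 762.8 in Th1 and at most 93.86 elsewhere. In Th17 the 4 Th1 markers differed in direction. *Ifng* had CPM of 64.62 and 48.71 in Th17 against 4.55 and 4.556 in Naive, and *Il12rb2* 11.08 and 6.676 against 3.816 and 3.763. *Tbx21* had 4.575 and 2.716 in Th17 against 23.32 and 20.85 in Naive, and *Cxcr3* 13.59 and 9.448 against 48.35 and 47.49. Markers of other cells were also present and moved with the groups. The summed CPM of 7 neutrophil markers was 2875 and 2774 in Th17, 310.3 and 189.1 in Naive against 27.35 and 39.26 in Th1. This sum joins markers of unlike profile. *Mpo* had 250.7 and 159.3 in Naive and 68.12 and 58.67 in Th17, and *Elane* 57.32 and 29.61 against 52.47 and 46.9. By contrast *S100a8*, *S100a9*, *Ngp*, *Ltf* and *Camp* were at most 0.9687 in Naive and at least 87.85 in Th17. The sum is therefore not a measure of the amount of 1 kind of cell. For 8 macrophage markers the sums were 19.57 and 55.78 in Th17, 11.8 and 9.211 in Naive versus 4.951 and 2.529 in Th1, with 2 of the 8 at 0 in Naive replicate 2 and in both Th1 libraries. Sums of 6 erythroid markers were 664.9 and 110.7 in Naive and at most 4.073 elsewhere. The part of these cells in the results below was not tested, and in bulk RNA a change in the number of cells of a type and a change in RNA per cell cannot be told apart.

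Promoter windows were read first, because the sterol genes are the textbook case of a shared promoter grammar. A RefSeq window (GRCm38.p6, 250 bases before to 50 after the start) was given for 28 of the 35 genes; *Fdps*, *Fdft1*, *Sqle*, *Abcg1*, *Stard4*, *Scd1* and *Scd2* had no entry. The windows of 4 sterol enzymes and, as a contrast from the export side, of *Abca1* follow, 5′ to 3′ on the gene's strand. Capitals mark CCAAT, the motif of the factor NF-Y, on either strand (ATTGG is CCAAT on the other strand), and the sterol regulatory element TCACNCCAC, the motif of the SREBPs. They lie at chr13:119690101-119690400, plus strand (*Hmgcs1*), chr5:114444019-114444318, plus strand (*Mvk*), chr13:8885356-8885655, plus strand (*Idi1*), chr8:64733529-64733828, minus strand (*Msmo1*) and chr4:53159846-53160145, minus strand (*Abca1*).
Hmgcs1: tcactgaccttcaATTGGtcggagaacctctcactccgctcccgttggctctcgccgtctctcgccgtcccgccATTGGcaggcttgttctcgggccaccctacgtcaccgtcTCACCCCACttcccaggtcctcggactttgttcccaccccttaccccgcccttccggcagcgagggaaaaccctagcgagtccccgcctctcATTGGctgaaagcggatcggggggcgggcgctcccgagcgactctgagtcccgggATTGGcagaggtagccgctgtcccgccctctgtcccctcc
Mvk: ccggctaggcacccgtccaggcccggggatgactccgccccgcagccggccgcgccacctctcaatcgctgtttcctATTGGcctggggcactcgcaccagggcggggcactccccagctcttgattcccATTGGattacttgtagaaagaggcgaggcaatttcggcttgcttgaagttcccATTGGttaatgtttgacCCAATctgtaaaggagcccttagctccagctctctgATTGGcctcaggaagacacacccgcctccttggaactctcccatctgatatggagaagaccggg
Idi1: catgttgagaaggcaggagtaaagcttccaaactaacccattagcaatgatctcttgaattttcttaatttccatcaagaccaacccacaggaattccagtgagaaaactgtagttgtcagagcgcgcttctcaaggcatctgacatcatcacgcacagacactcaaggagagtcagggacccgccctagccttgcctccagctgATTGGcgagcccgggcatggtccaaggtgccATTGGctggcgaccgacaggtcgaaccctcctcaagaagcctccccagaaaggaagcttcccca
Msmo1: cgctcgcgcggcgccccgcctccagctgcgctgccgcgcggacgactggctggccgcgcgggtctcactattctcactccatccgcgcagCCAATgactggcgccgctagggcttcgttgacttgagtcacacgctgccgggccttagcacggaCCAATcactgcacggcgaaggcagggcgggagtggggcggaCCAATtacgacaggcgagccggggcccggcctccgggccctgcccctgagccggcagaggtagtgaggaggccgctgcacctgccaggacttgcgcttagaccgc
Abca1: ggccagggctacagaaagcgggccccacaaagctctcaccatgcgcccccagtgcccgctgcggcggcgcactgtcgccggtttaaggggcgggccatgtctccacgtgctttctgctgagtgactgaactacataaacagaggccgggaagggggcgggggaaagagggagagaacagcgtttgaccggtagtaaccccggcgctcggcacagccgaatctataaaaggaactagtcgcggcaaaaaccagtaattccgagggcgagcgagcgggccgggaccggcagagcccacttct

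The CCAAT motif was present in the windows of all 14 sterol enzymes that had an entry, whereas 41.1% of the 27025 genes in the table have it in at least 1 window. *Mvk* held 5 matches, *Hmgcs1* 4, *Msmo1* 3 and *Idi1* 2. Of the other groups, 4 of 5 genes of SREBP control, 4 of 6 genes of fatty acid synthesis and 0 of 3 genes of the LXR and export group had a match. *Abca1*, *Nr1h2*, *Nr1h3*, *Scap*, *Acaca* and *Elovl6* were the 6 genes without one. The sterol regulatory element was matched by its strict letters in *Hmgcs1* alone, 137 bases before the start, against 1.44% of all genes. The E-box CACGTG, which SREBP-1 and other factors can bind, was found in 6 of the 28 (8.09% of all genes), and the GC box GGGCGG of the SP1 family in 21 of the 28 (38.2% of all genes), 13 of them among the 14 sterol enzymes. Both strands were searched, and 1 pair of matches overlapped, both of them CCAAT, in *Fasn*. A match describes these letters in this window, and 6 of the genes have several annotated starts.

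**Figure D1:**
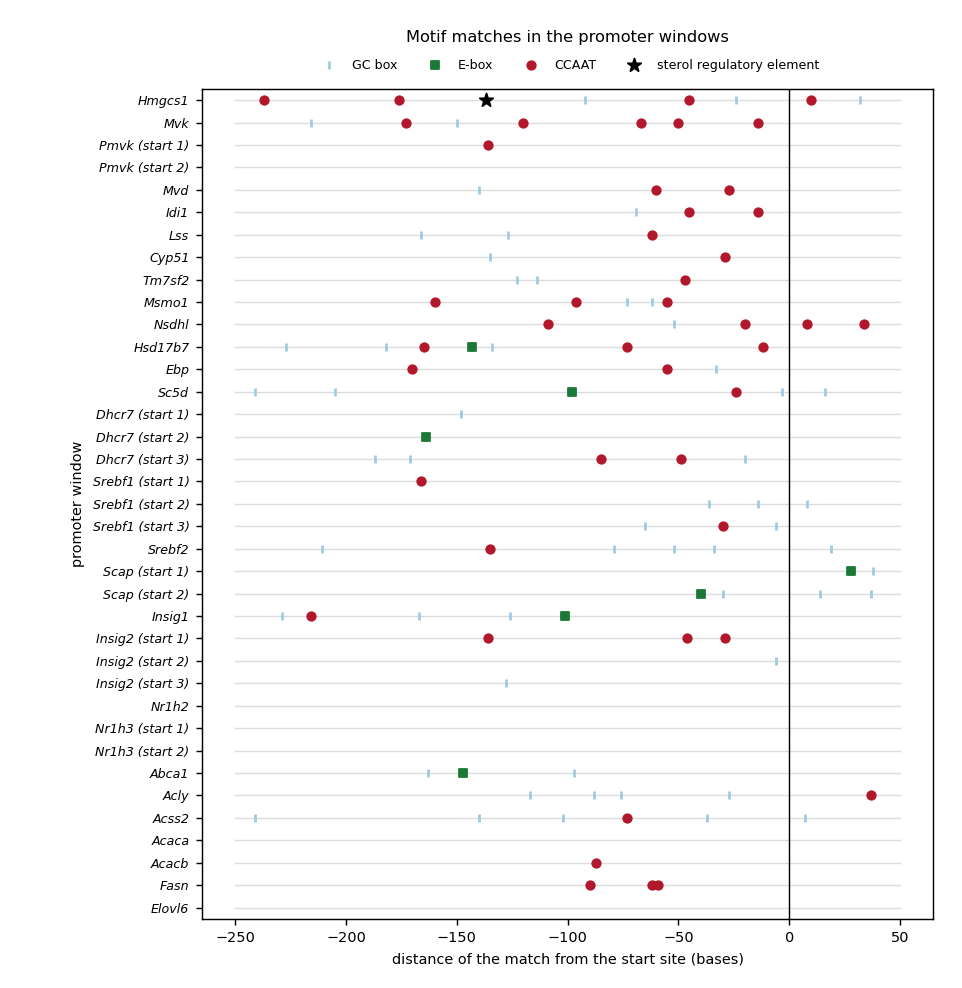
Motif matches in the RefSeq promoter windows of 28 genes, 1 row for each annotated start, by distance from the start site in bases. CCAAT matches (red circles) occur in each of the 14 sterol enzymes shown, from *Hmgcs1* to *Dhcr7*, while the rows of *Nr1h2*, *Nr1h3* and *Abca1* hold none and the only sterol regulatory element (star) is in *Hmgcs1*.

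Th1 cells had the highest level of most of these transcripts. A gene was called up- or down-regulated at a Benjamini-Hochberg adjusted p below 0.01 in edgeR's quasi-likelihood test, over all genes tested, and an absolute log2 fold change above 1. In Th1 compared with Naive, 15 of the 35 genes were up-regulated, beside 4.64% of all genes tested, and 0 were down-regulated, beside 2.81% (3 lay lower at an unadjusted p under 0.05, and DESeq2 also called 0). In Th17 compared with Naive, 3 were up-regulated (*Idi1*, *Msmo1* and *Elovl6*), beside 4.01%, and 1 was down-regulated (*Abca1*), beside 1.43%. In Th1 compared directly with Th17, 7 were up-regulated, beside 2.7%, and 0 were down-regulated, beside 2.83% (0 at an unadjusted p under 0.05 and 0 by DESeq2). The median log2 fold change of the 35 genes was 1.38 in Th1 compared with Naive, 0.52 in Th17 compared with Naive and 0.94 in Th1 compared with Th17, and over all genes tested these medians were -0.02, -0.02 and -0.03. The comparisons with Naive share the Naive libraries, so their values stand side by side and are not independent.

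Each called gene moved the same way in replicate 1 and in replicate 2, and its groups did not overlap. That is a weak statement with 2 libraries, since the groups did not overlap for 56% to 66.6% of all genes tested. Of the 15 calls in Th1 compared with Naive, 7 remained whichever library was left out: *Hmgcs1*, *Fdps*, *Sqle*, *Lss*, *Cyp51*, *Elovl6* and *Scd2*. The count was 9 without Naive replicate 2, which lost *Mvk*, *Mvd*, *Idi1*, *Fdft1*, *Msmo1* and *Stard4*, and 10 without Naive replicate 1, which lost *Mvk*, *Mvd*, *Msmo1*, *Insig1* and *Stard4*. Without Th1 replicate 1 the calls of *Msmo1*, *Insig1*, *Stard4* and *Scd1* were lost, and without Th1 replicate 2 that of *Mvd*. Of the 4 calls in Th17 compared with Naive, *Elovl6* remained whichever library was left out, and the count was 1 without Naive replicate 2 or without Th17 replicate 2, 2 without Th17 replicate 1 and 5 without Th1 replicate 1. By DESeq2 the calls were 22 in Th1 compared with Naive, 10 in Th17 compared with Naive and 15 in Th1 compared with Th17. DESeq2 also called more of all genes: 1113 higher and 822 lower in Th1 compared with Naive, where edgeR called 631 and 383. In Th17 compared with Naive it called 1072 and 669 (edgeR 545 and 194). In Th1 compared with Th17 it called 927 and 902 (edgeR 367 and 385). DESeq2 was fitted to 17846 genes and edgeR to 13607.

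**Figure D2:**
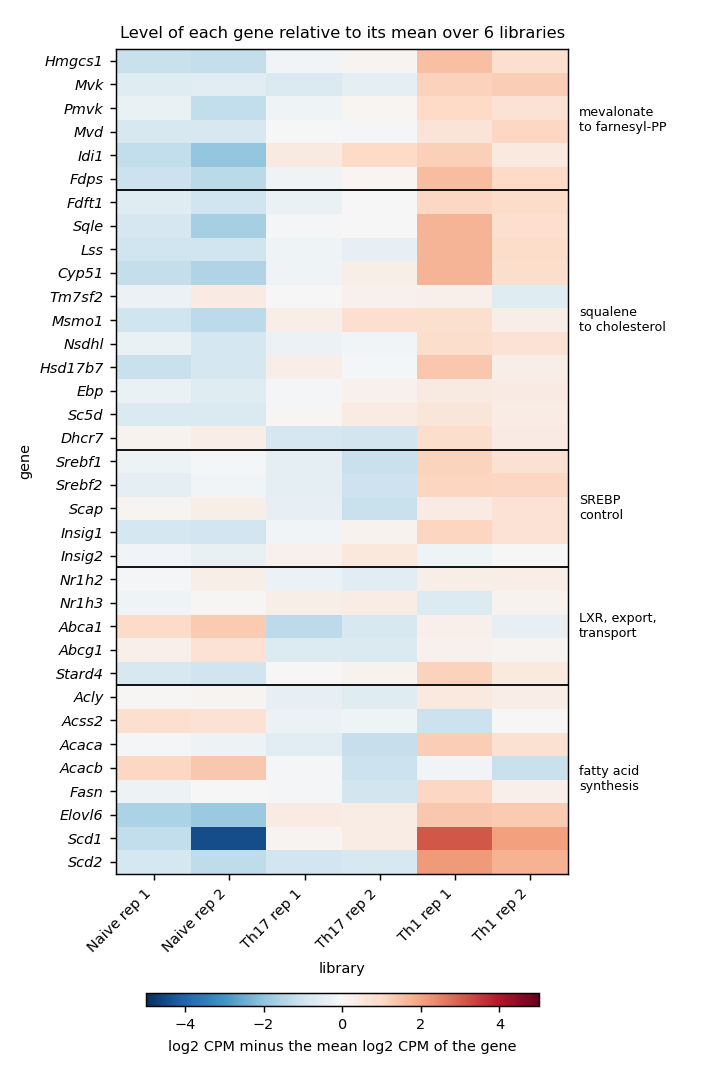
Level of the 35 genes in the 6 libraries, as log2 CPM minus the gene's mean over the libraries (color), grouped by role. The Th1 columns are the reddest for most rows from *Hmgcs1* to *Cyp51* and for *Scd1* and *Scd2*, whereas *Abca1*, *Acss2* and *Acacb* are highest in the Naive columns.

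The 6 enzymes of the mevalonate route were all higher on average in Th1 than in Naive. Of these, 5 were called (83.3%, beside 4.64% of all genes tested). *Hmgcs1*, which condenses acetyl units into HMG-CoA (GRCm38 chr13:119690379-119708260), had CPM of 34.23 and 31.94 in Naive, 66.67 and 80.11 in Th17, against 211.2 and 131.2 in Th1. The 3 cell types did not overlap and were ordered Naive, Th17, Th1. Its log2 fold change was 2.37 (SE 0.30, adjusted p = 0.00086) in Th1 compared with Naive, and 1.15 (SE 0.29, adjusted p = 0.028) in Th17 compared with Naive, which missed the threshold. *Fdps*, which makes farnesyl pyrophosphate, had a like profile, at 36.86 and 30.45 in Naive, 69.21 and 82.88 in Th17, versus 225.2 and 155.5 in Th1. Its log2 fold change was 2.50 (SE 0.29, adjusted p = 0.00052) in Th1 and 1.17 (SE 0.28, adjusted p = 0.022) in Th17, each compared with Naive.

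*Mvk* and *Idi1* differed from that order in opposite ways. *Mvk*, the kinase that phosphorylates mevalonate, had CPM of 16.64 and 16.94 in Naive, 15.19 and 17.71 in Th17, against 55.46 and 59.18 in Th1. Naive and Th17 overlapped, and Th1 stood apart at 3.41-fold the Naive level (log2 fold change 1.77, SE 0.28, adjusted p = 0.0025). *Idi1*, the isomerase that makes the allylic building block, had CPM of 11.3 and 6.933 in Naive, 36.72 and 53.8 in Th17, versus 60.71 and 37.81 in Th1. Here both Th cell types were above Naive and overlapped each other. The log2 fold change was 2.30 (SE 0.38, adjusted p = 0.0037) in Th17 and 2.43 (SE 0.38, adjusted p = 0.0025) in Th1, each compared with Naive, and 0.13 (SE 0.36) between Th1 and Th17, a difference that takes the opposite sign (-0.06) when libraries are scaled by their size alone. The *Idi1* call in Th17 was lost without Naive replicate 2 or without Th17 replicate 2.

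*Mvd* and *Pmvk*, which act between these steps, followed the route more weakly. *Mvd*, the decarboxylase, had CPM of 30.25 and 30.01 in Naive, 53.51 and 50.18 in Th17, against 82.23 and 108.6 in Th1, and was called in Th1 compared with Naive (log2 fold change 1.66, SE 0.26, adjusted p = 0.0027). *Pmvk*, the second kinase, had CPM of 15.22 and 8.171 in Naive, 16.71 and 20.42 in Th17, versus 38.09 and 32.24 in Th1, and missed the threshold (1.58, SE 0.36, adjusted p = 0.015). Counting of *Fdps* and *Idi1* is less certain, because 26.2% and 17.7% of their 50-base exon words also occur in another annotated gene; for 30 of the 35 genes the share is under 5%, and for *Fdft1* and *Tm7sf2* it is 9.38% and 9.87%.

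Of the 11 enzymes from squalene to cholesterol, 5 were up-regulated in Th1 compared with Naive and 1 in Th17 compared with Naive. These were 45.5% and 9.09%, beside 4.64% and 4.01% of all genes tested. *Fdft1*, the squalene synthase, had CPM of 21.58 and 16.74 in Naive, 26.63 and 32.64 in Th17, against 67.56 and 62.59 in Th1, a log2 fold change of 1.76 (SE 0.28, adjusted p = 0.0029) in Th1 compared with Naive. *Sqle*, which epoxidizes squalene, had CPM of 26.63 and 14.95 in Naive, 45.55 and 45.94 in Th17, versus 153.3 and 84.78 in Th1. Both its Th1 and its Naive libraries were spread widely, yet both Th1 values lay above the others. Its log2 fold change in Th1 compared with Naive was 2.51 (SE 0.38, adjusted p = 0.0020).

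*Lss*, which closes the sterol rings to give lanosterol, had CPM of 17.01 and 17.13 in Naive, 29.18 and 25.4 in Th17, against 109.2 and 63.54 in Th1. It was up-regulated in Th1 compared with Naive (log2 fold change 2.34, SE 0.32, adjusted p = 0.0013) and compared with Th17 (1.66, SE 0.32, adjusted p = 0.0079). *Cyp51*, the lanosterol demethylase, had CPM of 27.58 and 22.33 in Naive, 56.19 and 77.17 in Th17, versus 202.8 and 114.9 in Th1. Its 6.36-fold change in Th1 compared with Naive was the highest of the 17 sterol enzymes (log2 fold change 2.67, SE 0.34, adjusted p = 0.00090), and in Th17 compared with Naive the value was 1.41 (SE 0.33, adjusted p = 0.020). *Msmo1*, a sterol methyl oxidase, went up to a like level in both Th cell types, with CPM of 17.36 and 13.82 in Naive, 43.82 and 61.33 in Th17, against 59.83 and 42.86 in Th1. The log2 fold changes were 1.75 (SE 0.31, adjusted p = 0.0060) in Th17 and 1.72 (SE 0.31, adjusted p = 0.0053) in Th1, each compared with Naive, and the Th17 call was lost when either Naive library or either Th17 library was left out.

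*Nsdhl* and *Hsd17b7*, which act in demethylation at carbon 4 of the sterol ring, had log2 fold changes of 1.38 (SE 0.31, adjusted p = 0.014) and 1.89 (SE 0.42, adjusted p = 0.013) in Th1 compared with Naive. *Sc5d*, a sterol desaturase, had 1.23 (SE 0.27, adjusted p = 0.013) and *Ebp*, a sterol isomerase, 0.89 (SE 0.27, adjusted p = 0.047) in the same comparison. None of these 4 passed the threshold in edgeR, while DESeq2 called *Nsdhl*, *Hsd17b7* and *Sc5d*. *Dhcr7*, which carries out a final reduction to cholesterol, had CPM of 39.25 and 44.02 in Naive, 19.42 and 18.61 in Th17, versus 64.16 and 46.03 in Th1. Th17 was thus the lowest group, at a log2 fold change of -1.13 (SE 0.28, adjusted p = 0.026) compared with Naive, not called, and *Dhcr7* was up-regulated in Th1 compared with Th17 (1.54, SE 0.29, adjusted p = 0.0073). *Tm7sf2*, a sterol reductase, had CPM between 5.627 and 11.39 in all 6 libraries with the groups overlapping, and its small differences changed sign with scaling or the library left out.

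**Figure D3:**
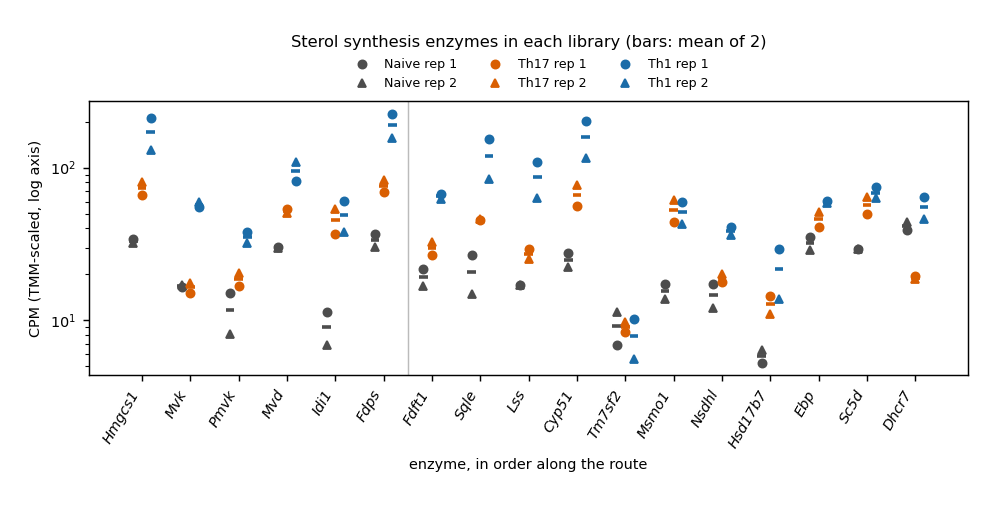
CPM (log axis) of the 17 sterol synthesis enzymes in the order of the route in the 6 libraries; circles are replicate 1, triangles replicate 2 and bars the mean of both. Th1 lies above Naive at every step other than *Tm7sf2*, Th17 lies between them for *Hmgcs1*, *Fdps*, *Sqle* and *Cyp51*, and *Dhcr7* is lowest in Th17.

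Taking the 17 sterol enzymes as a group, 10 were up-regulated in Th1 compared with Naive, 2 in Th17 compared with Naive and 3 in Th1 compared with Th17 (*Mvk*, *Lss* and *Dhcr7*), and 0 were called down-regulated by edgeR in the 3 comparisons. The higher calls came to 58.8%, 11.8% and 17.6% of the 17, beside 4.64%, 4.01% and 2.7% of all genes tested. For lower calls the shares of all genes tested were 2.81%, 1.43% and 2.83%, in the same order. *Dhcr7* in Th17 was the 1 lower value among the 17 sterol enzymes at an unadjusted p under 0.05, and DESeq2 called it. Their median log2 fold changes were 1.76, 0.78 and 1.02. Within replicate 1 alone the medians were 1.74, 0.77 and 1.19, and within replicate 2 alone 1.86, 0.96 and 0.71. The summed CPM of the 17 genes was 387.9 and 341.8 in Naive, 610.4 and 723.1 in Th17, against 1545 and 1117 in Th1. The 3 groups thus did not overlap in this sum. In single pairs of groups, 56% to 66.6% of all genes tested did not overlap either. The share of genes with all 3 groups apart was not computed. Scaling by library size alone, under which the median of all genes moves to -0.26 in Th1 compared with Naive and to -0.24 in Th1 compared with Th17, gave medians of 1.52 and 0.81 for the sterol enzymes in these comparisons.

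Among the 5 genes of SREBP control, *Insig1* was up-regulated in Th1 compared with Naive, and both SREBP genes were up-regulated in Th1 compared with Th17. *Srebf2* (GRCm38 chr15:82147181-82205379), whose product drives mainly sterol genes, had CPM of 236.6 and 303.7 in Naive, 248.4 and 164.6 in Th17, versus 698.8 and 687.9 in Th1. Naive and Th17 overlapped, and the Th1 libraries lay far above both. The log2 fold change was 1.75 (SE 0.31, adjusted p = 0.0059) in Th1 compared with Th17, and 1.36 (SE 0.31, adjusted p = 0.015) in Th1 compared with Naive, which missed the threshold. *Srebf1*, whose products drive mainly fatty acid genes, had CPM of 134.0 and 149.7 in Naive, 115.7 and 73.94 in Th17, against 342.7 and 268.4 in Th1, with 1.69 (SE 0.31, adjusted p = 0.0063) in Th1 compared with Th17 and 1.11 (SE 0.30, adjusted p = 0.032) in Th1 compared with Naive. A gene-level count does not separate the SREBP-1a and SREBP-1c transcripts of *Srebf1*.

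*Insig1*, itself a known SREBP target, was graded across the cell types, at 33.7 and 31.59 in Naive, 55.39 and 69.14 in Th17, versus 127.9 and 100.6 in Th1. Its log2 fold change was 1.81 (SE 0.27, adjusted p = 0.0019) in Th1 compared with Naive and 0.93 (SE 0.26, adjusted p = 0.041) in Th17 compared with Naive. *Insig2* did not follow it, with CPM between 14.66 and 27.21 in all libraries and log2 fold changes of 0.62 (SE 0.30) in Th17 and 0.12 (SE 0.30) in Th1, each compared with Naive, the second turning to -0.13 under scaling by library size alone. *Scap* had CPM of 135.5 and 149.8 in Naive, 91.86 and 56.75 in Th17, against 161.5 and 200.4 in Th1. It was lowest in Th17, and its difference between Th1 and Th17 was 1.28 (SE 0.30, adjusted p = 0.020), below the call.

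*Abca1*, of the LXR and export group, was the 1 gene that edgeR called down-regulated; DESeq2 called *Abca1*, *Abcg1* and *Dhcr7*, all in Th17 compared with Naive. *Abca1*, the exporter of cholesterol to apolipoprotein acceptors (GRCm38 chr4:53030787-53159895), had CPM of 25.51 and 32.48 in Naive, 5.279 and 7.638 in Th17, versus 15.83 and 9.799 in Th1. The 3 groups did not overlap and were ordered Th17, Th1, Naive. The Th17 level was 4.51-fold lower than the Naive level (log2 fold change -2.17, SE 0.38, adjusted p = 0.0051), and for Th1 compared with Naive the value was -1.17 (SE 0.36, adjusted p = 0.054). The Th17 call was lost without Naive replicate 2 and without either Th17 library, with the same direction each time.

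*Abcg1*, the exporter to mature lipoproteins, had CPM of 85.56 and 118.9 in Naive, 44.7 and 43.68 in Th17, versus 83.13 and 78.39 in Th1. It was lowest in Th17 too, at a log2 fold change of -1.21 (SE 0.26, adjusted p = 0.015), which edgeR did not call and DESeq2 did. The LXRβ gene *Nr1h2* was well expressed, with CPM between 68.51 and 127.5. The LXRα gene *Nr1h3* was low, with CPM between 0.8354 and 1.754 from 24 to 109 counts. Neither was called in the 3 comparisons, and the *Nr1h2* difference between Th1 and Naive (0.18) turned to -0.08 under scaling by library size alone. *Stard4*, a sterol carrier and a known SREBP target, did not move with the exporters: it had CPM of 25.14 and 21.89 in Naive, 43.72 and 49.84 in Th17, against 98.18 and 62.72 in Th1. Its log2 fold change was 1.77 (SE 0.30, adjusted p = 0.0036) in Th1 compared with Naive.

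**Figure D4:**
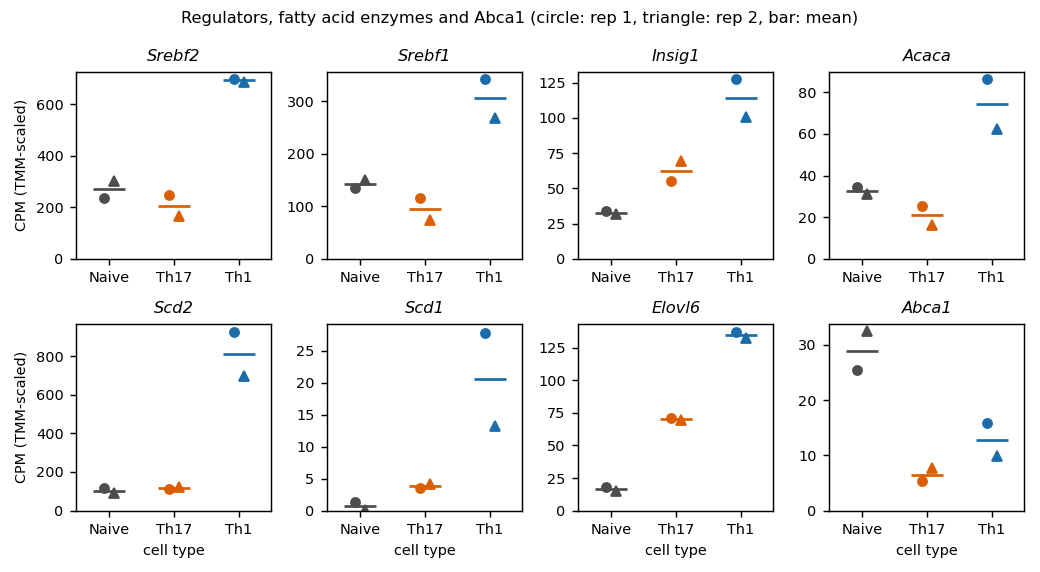
CPM of 8 genes in each library (circle, replicate 1; triangle, replicate 2; bar, mean), each panel with its own axis from 0. *Srebf2*, *Srebf1*, *Acaca* and *Scd2* are high in Th1 alone, *Insig1* and *Elovl6* step up from Naive to Th17 to Th1, and *Abca1* is highest in Naive and lowest in Th17.

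Among the fatty acid genes, the desaturases *Scd1* and *Scd2* and the elongase *Elovl6* were up-regulated in Th1 compared with Naive. *Scd2*, a stearoyl-CoA desaturase that makes monounsaturated fatty acids (GRCm38 chr19:44293674-44306864), had CPM of 116.8 and 88.64 in Naive, 110.4 and 122.5 in Th17, versus 925.5 and 699.2 in Th1. Naive and Th17 overlapped, and Th1 stood 7.91-fold above Naive (log2 fold change 2.98, SE 0.31, adjusted p = 0.00030) and 6.98-fold above Th17 (2.80, SE 0.31, adjusted p = 0.00056). Its neighbor on the chromosome, *Scd1* (GRCm38 chr19:44394455-44407879), had far fewer reads: 94 and 3 counts in Naive, 234 and 74 in Th17, against 1798 and 209 in Th1. In CPM these were 1.38 and 0.1486, 3.581 and 4.187, and 27.82 and 13.21, so the 3 groups did not overlap. The log2 fold change in Th1 compared with Naive was 4.60 (SE 0.77, adjusted p = 0.0034), but Naive replicate 2 lies at the floor of 3 counts, the gene drops out when 10 counts are required in every library, and the call was lost without Th1 replicate 1. *Scd1* passed the filter on low counts only through the Th libraries, so its call, which is part of the counts given here, is a description. Under 5% of the 50-base words of *Scd1* and of *Scd2* occur in another gene.

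*Elovl6*, which elongates palmitate to stearate, had the smallest adjusted p of the 35 genes in both comparisons with Naive. Its CPM was 18.07 and 14.76 in Naive, 71.03 and 69.53 in Th17, versus 137.4 and 132.3 in Th1, close within each cell type and far apart between them. The log2 fold change was 2.10 (SE 0.26, adjusted p = 0.00084) in Th17 and 3.04 (SE 0.27, adjusted p = 0.00013) in Th1, each compared with Naive, and 0.94 (SE 0.25, adjusted p = 0.031) in Th1 compared with Th17.

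*Acaca*, the acetyl-CoA carboxylase that commits carbon to fatty acids, had CPM of 34.39 and 31 in Naive, 25.46 and 16.29 in Th17, against 86.31 and 62.21 in Th1. It was up-regulated in Th1 compared with Th17 (log2 fold change 1.83, SE 0.32, adjusted p = 0.0053), with 1.18 (SE 0.31, adjusted p = 0.029) in Th1 compared with Naive, and 30.4% of its 50-base exon words also occur in another gene. The second carboxylase gene, *Acacb*, known for its role in restraining fatty acid oxidation, was scarcely detected, with CPM at most 2.426. *Fasn*, the fatty acid synthase, had CPM of 199 and 235.5 in Naive, 232.2 and 125.2 in Th17, versus 484 and 283.2 in Th1, and was not called (log2 fold change 0.82, SE 0.37, adjusted p = 0.17 in Th1 compared with Naive).

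*Acly* and *Acss2* make cytosolic acetyl-CoA from citrate and from acetate. Both were lower in Th17 than in Naive and differed in direction in Th1. Neither was called by edgeR with the filter and thresholds used throughout. *Acly* had CPM of 316.5 and 331.9 in Naive, 225.7 and 198.3 in Th17, against 426.6 and 385.1 in Th1. *Acss2* had CPM of 86.76 and 80.27 in Naive, 39.45 and 41.19 in Th17, versus 23.07 and 47.16 in Th1, so both Th cell types lay below Naive. The log2 fold changes of *Acss2* were -1.05 (SE 0.34, adjusted p = 0.062) in Th17 and -1.26 (SE 0.34, adjusted p = 0.032) in Th1. With no filter on low counts *Acss2* was called lower in both comparisons with Naive. In Th1 it was also called lower at an adjusted p under 0.05 and by DESeq2 with a replicate block. Over the 8 fatty acid genes, 1 was up-regulated in Th17 and 3 in Th1, each compared with Naive, and 2 in Th1 compared with Th17 (12.5%, 37.5% and 25%, beside 4.01%, 4.64% and 2.7% of all genes tested). Their median log2 fold changes were -0.45, 1.00 and 1.02, and the first was -0.74 without Th17 replicate 1 and -0.13 without Th17 replicate 2.

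**Figure D5:**
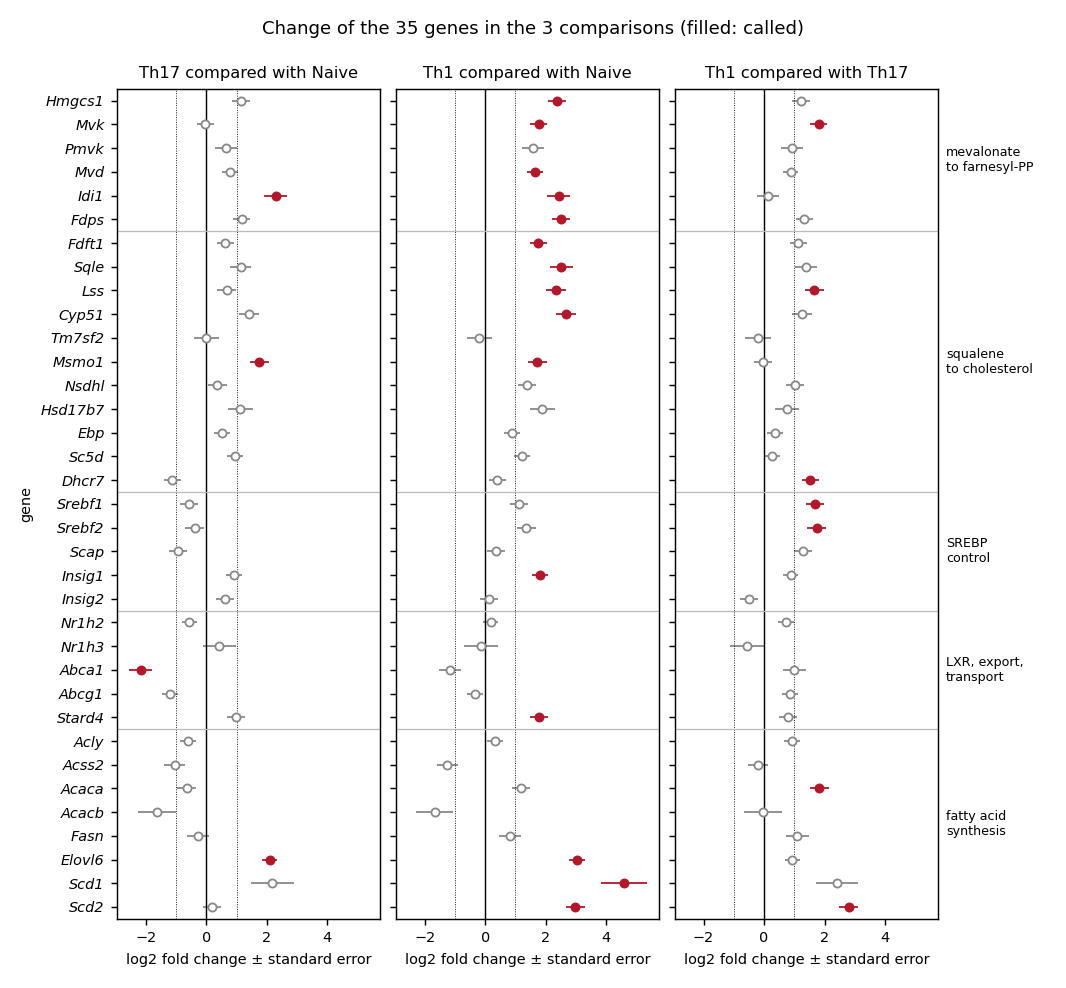
Log2 fold change with standard error of the 35 genes in the 3 comparisons, filled red where called; dotted lines mark a log2 fold change of 1 in either direction. In Th1 compared with Naive the 15 called genes all lie on the right, in Th17 compared with Naive 3 lie on the right and *Abca1* on the left, and in Th1 compared with Th17 the 7 called genes lie on the right, with *Scd2* farthest.

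The direct comparison of the Th cell types held 7 calls: *Mvk*, *Lss*, *Dhcr7*, *Srebf1*, *Srebf2*, *Acaca* and *Scd2*, all higher in Th1. The Th17 libraries overlapped the Naive libraries for *Mvk*, *Srebf2* and *Scd2*, lay below them for *Dhcr7*, *Srebf1* and *Acaca*, and lay above them for *Lss*. *Scd2* was the call that remained when any 1 library was left out; the count was 1 without either Th17 library, 2 without Th1 replicate 1 and 4 without Th1 replicate 2. With libraries scaled by size alone 2 calls remained (*Mvk* and *Scd2*), and *Lss* and *Dhcr7* lost the call when 10 counts were required in every library. Of the 35 genes 29 had a positive log2 fold change under the TMM scaling used throughout, beside 48.8% of all genes tested.

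Levels can be set against each other between genes when CPM is divided by exon length in kilobases, with all exons of GENCODE release 21 merged. On this per-kilobase scale *Acly* was the most abundant of the 35 in Naive (mean 61.41) and in Th17 (40.16). In Th1 the order became *Scd2* (148.7), *Srebf2* (96.51) and *Acly* (76.88). Within the sterol route in Naive, *Mvd* (16.21) and *Ebp* (13.9) led and *Hsd17b7* (1.148) and *Lss* (1.582) were lowest, whereas in Th1 *Mvd* (51.33), *Fdps* (45.24), *Hmgcs1* (37.27) and *Cyp51* (35.98) led. Of the pairs of related genes, *Nr1h2* far exceeded *Nr1h3* (33.25 against 0.5064 in Naive) and *Acaca* exceeded *Acacb* (1.915 against 0.228 in Naive). These per-kilobase values are levels, with merged exons that can include rarely used ones.

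The wider pathway was covered by 6 further lists with 50 genes, of which 48 were tested. In Th1 compared with Naive, 4 of the 48 were up-regulated (8.33%, beside 4.64% of all genes tested) and 0 down-regulated (5 lay lower at an unadjusted p under 0.05, and DESeq2 called 1). For Th17 compared with Naive, 1 was up-regulated and 1 down-regulated (2.08% each, beside 4.01% and 1.43%). For Th1 compared with Th17, 2 were up-regulated (4.17%, beside 2.7%) and 0 down-regulated (3 lay lower at an unadjusted p under 0.05, and DESeq2 called 1). These counts rest on single libraries: the 4 came to 2 without Naive replicate 2 or without Th1 replicate 1, the 1 higher and 1 lower to 0 and 0 without Naive replicate 1 or without Th17 replicate 1, the 1 lower to 0 without Naive replicate 2 or without Th17 replicate 2, and the 2 in Th1 compared with Th17 to 1 without Th17 replicate 2 or without Th1 replicate 2. *Elovl5*, an elongase of polyunsaturated fatty acids, had CPM of 142.5 and 162.7 in Naive, 116.8 and 124.6 in Th17, against 709.8 and 931.2 in Th1. Its profile was thus like that of *Scd2*, high in Th1 alone, with log2 fold changes of 2.43 (SE 0.29, adjusted p = 0.00060) compared with Naive and 2.77 (SE 0.30, adjusted p = 0.00051) compared with Th17. *Me1*, the cytosolic malic enzyme that supplies NADPH, had 0 counts in both Naive libraries, 95 and 24 in Th17, versus 105 and 32 in Th1. Against the floor of 3 counts per library it was at least 9.14-fold higher in Th17 and at least 10.93-fold higher in Th1. It passed the filter on low counts only through the Th libraries, so its 2 calls, which are part of the counts above, are given as a description.

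*Acsl4*, which activates long-chain fatty acids, was up-regulated in Th1 compared with Naive (log2 fold change 1.57, SE 0.26, adjusted p = 0.0032), and *Lpin1*, a phosphatidate phosphatase, in Th1 compared with Th17 (2.06, SE 0.34, adjusted p = 0.0041). *Acadl*, a dehydrogenase of fatty acid oxidation, was the 1 gene of the 7 on that list called by edgeR (log2 fold change 2.04, SE 0.38, adjusted p = 0.0061 in Th1 compared with Naive). DESeq2 also called *Acadm* of that list, lower in Th1 compared with Th17. *Mylip*, a known LXR target that marks lipoprotein receptors for degradation, had CPM of 69.01 and 83.99 in Naive, 26.4 and 30.1 in Th17, against 54.58 and 74.92 in Th1. It was down-regulated in Th17 compared with Naive (-1.44, SE 0.28, adjusted p = 0.0088), in the same direction as *Abca1*. Of all genes tested, edgeR called 1.43% to 4.64% in each direction and comparison. For SREBP processing and INSIG turnover it called 0 of the 9 genes in the 3 comparisons. For isoprenoid use it called 0 of the 8, and for oxysterol formation 0 of the 2 tested. Unadjusted p-values under 0.05 were 4, 3 and 1 in number over the 3 comparisons, and DESeq2 called 1, the farnesyltransferase subunit gene *Fntb* of the isoprenoid list in Th1 compared with Th17 (edgeR log2 fold change 1.57, adjusted p = 0.011).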

How the data were processed

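Bulk RNA-Seq libraries of Naive, Th17 and Th1 cells were analysed, 2 per cell type and 6 in all, from the deposited table of read counts per gene symbol of each library. Per the study's methods, the authors mapped paired reads to mm10 with HISAT2 (2.2.1), removed duplicates and made the counts with HTSeq (0.13.5). The pipeline given with the study counts with a reverse-stranded option, whereas the methods state default parameters. Which of them made the counts is not known, and counts of genes that overlap another gene were used unchanged. StringTie (2.1.7) and DESeq2 (1.34.0) are also named in the submitters' processing notes. The study calls its replicates independent biological replicates.

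Counts were fitted over the 13607 genes passing edgeR's filterByExpr (edgeR 4.0.16, limma 3.58.1, R 4.3.3; TMM scaling; 1 quasi-likelihood model over all 6 libraries; no term other than cell type). Calls followed the study's thresholds, a Benjamini-Hochberg adjusted p below 0.01 with a log2 fold change beyond 1 in either direction. Exact permutation of 4 libraries reaches at best a two-sided p of 0.333, so p-values come from the model that pools the spread. CPM values are TMM-scaled and are the 2 libraries' own values. The step was tested on simulated data. The genes and all gene lists were chosen with earlier results of these data known. All 35 genes may be named; from the other lists, genes called in a comparison, at most 4 a list, *Fntb* and *Acadm* being exceptions named after their values were seen. Exon lengths and shared 50-base words come from GENCODE release 21 and promoter windows from RefSeq (GRCm38.p6). Alternatives were DESeq2 (1.42.0), RLE or library-size scaling, other count filters and thresholds, a replicate block, and leaving out each library. The floor of 3 counts covers counting error only.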

Additional observations from a re-analysis of the deposited data

Results flagged for a closer look

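For 7 of the 35 genes the change from Naive differed between Th1 and Th17 by the direct comparison of the Th cell types, all 7 higher in Th1 (adjusted p below the threshold in edgeR's quasi-likelihood test). The difference in log2 fold change was 1.80 for *Mvk*, 1.66 for *Lss*, 1.54 for *Dhcr7*, 1.69 for *Srebf1*, 1.75 for *Srebf2*, 1.83 for *Acaca* and 2.80 for *Scd2*. *Scd2* showed the largest difference of the 35 genes and was called whichever library was left out. For *Dhcr7* the changes from Naive had opposite signs, -1.13 in Th17 and 0.41 in Th1, neither of them called by edgeR, while DESeq2 called the first.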

How the results depend on the processing

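Of 105 log2 fold changes (35 genes, 3 comparisons), 13 changed sign under at least 1 alternative, 24 values in all, and 0 of the 13 was called. Under library-size scaling *Tm7sf2* had -0.041 in Th17 compared with Naive, *Insig2* -0.13 and *Nr1h2* -0.0764 in Th1 compared with Naive, and *Idi1* -0.0632 in Th1 compared with Th17. In Th17 compared with Naive, *Tm7sf2* had -0.0063 with no filter on low counts and *Mvk* 0.0206 with 10 counts required in every library. The other sign changes came with a library left out, giving ranges in Th17 compared with Naive of -0.15 to 0.0845 for *Mvk*, -0.32 to 0.39 for *Tm7sf2*, -0.79 to 0.095 for *Fasn* and -0.0155 to 0.39 for *Scd2*. Those for Th1 compared with Naive were -0.65 to 0.21 for *Tm7sf2* and -0.59 to 0.30 for *Nr1h3*. Those for Th1 compared with Th17 were -0.26 to 0.44 for *Idi1*, -0.70 to 0.17 for *Tm7sf2*, -0.30 to 0.24 for *Msmo1*, -0.79 to 0.22 for *Acss2* and -0.66 to 0.58 for *Acacb*.

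Counts of called genes rose with DESeq2, no filter on low counts, DESeq2 with a replicate block, or an adjusted p under 0.05: up-regulated genes in Th17 compared with Naive numbered 7, 8, 8 and 6, down-regulated genes 3, 4, 3 and 3, and up-regulated genes in Th1 compared with Th17 15, 15, 14 and 15. In Th1 compared with Naive, 1 gene (*Acss2*) was down-regulated with no filter, with DESeq2 and the block, and at an adjusted p under 0.05. Library-size scaling ended the calls of *Msmo1* in both comparisons with Naive and of *Stard4* in Th1 compared with Naive, left 2 up-regulated genes in Th1 compared with Th17, and moved the medians of the sterol and fatty acid genes to 1.52 and 0.77 in Th1 compared with Naive and to 0.81 and 0.80 in Th1 compared with Th17. Replicate numbers were not taken as pairs, since deviations of same-numbered libraries correlated at -0.231 (Naive and Th17), 0.168 (Naive and Th1) and 0.077 (Th17 and Th1) over genes. The replicate block in edgeR gave 4, 18 and 7 calls in the order Th17 and Th1 compared with Naive and Th1 compared with Th17, adding *Pmvk*, *Nsdhl* and *Hsd17b7* in Th1 and losing 0. Crossing the Th17 numbers in the block, chosen after seeing the data, brought Th17 compared with Naive to 5 genes higher and 2 lower, and gave 19 calls in Th1 compared with Naive and 11 in Th1 compared with Th17.

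With each library left out in turn, up-regulated genes numbered 1 to 4 in Th17 compared with Naive, 9 to 15 in Th1 compared with Naive and 1 to 8 in Th1 compared with Th17, and down-regulated genes 0 to 1, 0 to 1 and 0. The fatty acid medians then ranged from -0.74 to -0.13, 0.70 to 1.28 and 0.88 to 1.32, and the sterol medians from 0.77 to 0.96, 1.66 to 1.89 and 0.83 to 1.20. The lone library left in a group is then assumed to vary like the other groups, so fewer calls also reflect fewer libraries. At 2 libraries a group and depths differing over 3-fold between replicate numbers, genes of low count (*Nr1h3*, *Acacb*, *Scd1*) have the widest errors.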
